A study of Mus musculus with 2 samples.

Results

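Adipocyte markers are genes that fat cells use to take up, store and burn lipid and to signal to other tissues. The 10 genes described here are Cfd, Cidea, Cidec, Adipoq, Fabp4, Plin1, Ucp1, Lep, Retn and Lpl, of 20659 genes that the arrays' probes could be matched to. They were chosen by name with values of these same arrays already known, so their levels and differences are a description and no test of the group is given. All 10 were matched, through 13 probes: 7 genes had 1 probe and Cidec, Retn and Lpl had 2 each.

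The RNA came from cultures of mouse CD4 T cells driven toward the T helper 9 (TH9) fate, that of T cells making interleukin 9, from 2 genotypes. The SIRT1flox/flox-CD4-Cre sample, called knockout below, came from mice with floxed alleles of Sirt1 and a Cre recombinase under control of Cd4, which is active in the T cell lineage. The other sample is labelled only as wild-type. Both cultures began from naive CD4+TCR+CD62Lhi CD44lo cells, sorted by flow cytometry from spleen and lymph node and stimulated with anti-CD3 and anti-CD28 (2 µg/ml each) and 100 U/ml human IL-2, with TGFβ1 at 2 ng/ml and IL-4 at 10 ng/ml, for 5 days by the sample descriptions and 5 to 6 by the protocol. The labels give no age, sex or number of mice. Each genotype had 1 array (1-colour, Cy3; both on the same slide), so the differences lack any replicate check and carry no p-value.

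In fat cells the nuclear receptor PPARγ switches on most of these genes: Fabp4 and Lpl supply fatty acids, Plin1, Cidea and Cidec coat or fuse lipid droplets, Ucp1 lets brown fat mitochondria make heat, and Adipoq, Lep, Retn and Cfd encode secreted proteins. Several are not limited to fat: macrophages also express Fabp4 and Lpl, and capillary endothelium expresses Fabp4. SIRT1 is an NAD-dependent deacetylase that is known, in mouse fat cells, to repress PPARγ targets. The study's title concerns IL-9-producing cells, and neither it nor the labels poses a question about fat genes.

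The labels and the arrays were checked first. The Sirt1 probe read 2920 on the knockout array and 3240 on the wild-type array (log2 difference -0.08 ± 0.20, scanner error), and since the labels do not say which exons are floxed, it cannot check the genotype. All directions below rest on the label. The Il9 probe read 7.36 on the knockout array and 5.48 on the wild-type array, both too dim to be called above background. All 10 T cell markers were well above background on both arrays, and so were all 8 B cell and all 10 fibroblast and stromal markers. All 7 matched neutrophil markers were too, although the cells had been sorted before culture. Of all 20659 genes, 12958 were so. Summed signals on the knockout array were 64800 (T cell), 89000 (B cell) and 143000 (neutrophil). On the wild-type array they were 67500, 108000 and 140000. Sums over different probes do not measure cell numbers. The arrays differed in their dim range: 65.3% of gene spots were well above background on the knockout array against 57.1% for wild-type, and the dimmest probe so marked had a signal of 9.60 (knockout) and 24.6 (wild-type). A gene seen on the knockout array alone was therefore common (8.56% of 20650 genes, 1768), and a gene seen on the wild-type array alone was rare (0.692%, 143 genes).

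The label was then set against the members themselves. Of the 10 genes, 8 were well above background on the knockout array (Cfd, Cidea, Cidec, Adipoq, Fabp4, Ucp1, Retn and Lpl), and 3 were so on the wild-type array by spots without an outlier flag (Fabp4, Retn and Lpl). Over all gene spots, flagged ones included, the shares were 65.3% (knockout) and 57.1% (wild-type). Counted as genes, as the members are, 12958 of 20659 were so on both arrays. A further 1768 were so on the knockout array only and 143 on the wild-type array only. The members were chosen with these values known, so the counts are not evidence about the list. The members were mixed. Plin1 and Lep were not well above background on either array, and Adipoq was so on the knockout array only, with a signal of 27.2. Cfd and Cidea, also seen on the knockout array only, were brighter there, at 141 and 121. The group is named by its list, and whether the cultures held fat cells was not tested.

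**Figure D1:**
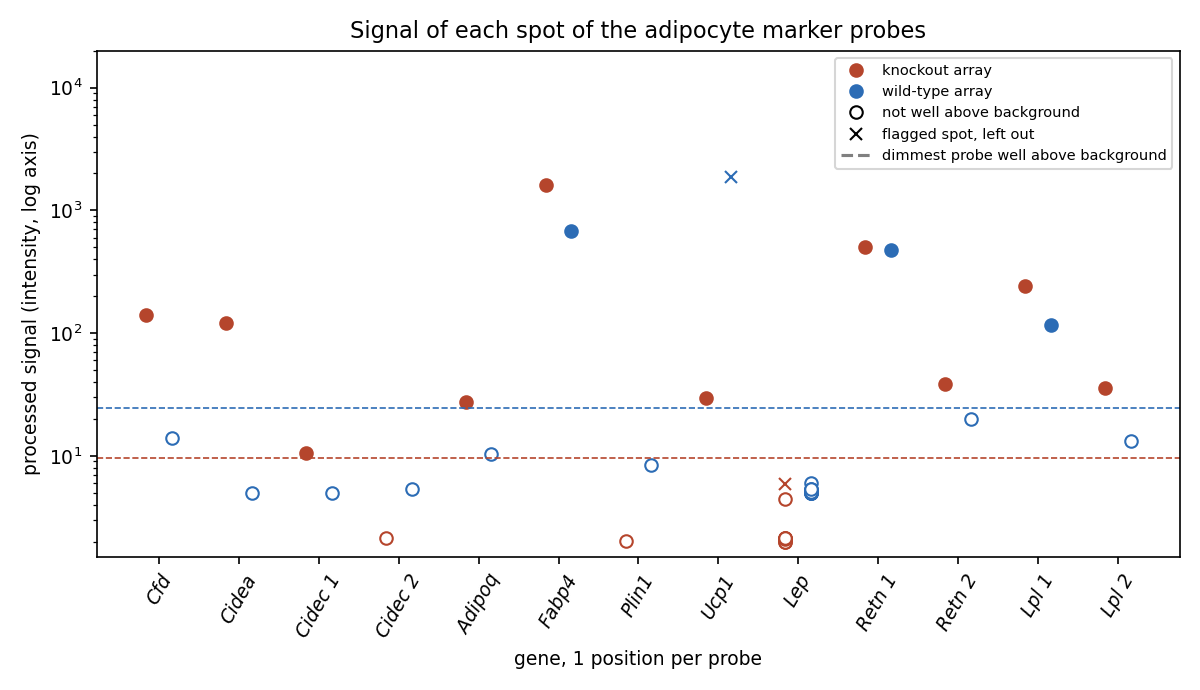
Processed signal (intensity, log axis) of every spot of the 13 member probes, knockout array in red and wild-type array in blue; filled points are well above background, open points are not, crosses are spots with an outlier flag, and the dashed lines mark the dimmest probe well above background on each array (9.60 and 24.6). Filled points of both colours appear only for Fabp4 and the first probes of Retn and Lpl, and the wild-type Ucp1 cross lies at 1860.

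The lipid supply genes Fabp4 and Lpl were both measured on both arrays and both higher on the knockout array. Fabp4, a carrier of fatty acids in the cytosol, had a signal of 1610 on the knockout array and 678 on the wild-type array. This is 2.48-fold higher, a log2 difference of 1.31 ± 0.20 (scanner error of the 2 spots, n = 1 array each). Lpl, the lipase that frees fatty acids from circulating triglyceride, had a signal of 240 on the knockout array and 117 on the wild-type array by its brighter probe, 2.15-fold higher (1.102 ± 0.21). The second Lpl probe, dimmer, read 35.4 on the knockout array and 13.2 on the wild-type array, where it was not well above background, at least 1.51-fold higher. Both probes of Lpl lay on the same side, but the second passed the background limit only on the array where it was brighter. It is therefore not a separate check of the first. From the median pixel minus local background the Lpl difference was 0.97, under the 2-fold mark. With another background correction (normexp), followed by quantile normalization, it was 0.71, also under the mark, while the Fabp4 difference was 1.11. The normexp setting adds 50 to each corrected signal, which by itself makes the differences of dim probes smaller. This holds for every normexp value below.

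The errors above come from the scanner software and from single spots. A direct measure of the spread within an array comes from probes spotted repeatedly. At signals of 1000 to 3000 such probes had a median SD of 0.0229 (log2) on the knockout array (57 probes) and 0.0268 on the wild-type array (63 probes), and at 100 to 300 it was 0.0392 (45 probes) and 0.0496 (46 probes). The Fabp4 and Lpl differences are larger than this spot-to-spot spread, which holds no variation between cultures or mice.

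Among the 12958 genes well above background on both arrays, 3.95% were at least 2-fold higher on the knockout array and 3.63% at least 2-fold lower. Scaling to each array's median, which moved every difference by 0.190, gave 6.22% higher and 2.23% lower. The split was 4.63% higher and 2.77% lower with quantile normalization, 4.88% and 2.76% in the authors' deposited table, and 1.35% and 0.826% with normexp. Of the 3 members measured on both, 2 were at least 2-fold higher and 0 at least 2-fold lower, and their median difference was 1.102 against 0.003 over all 12958 genes. Since the members were chosen with these values known, the count is not evidence about the list. Differences at least as high as that of Fabp4 were found for 221 genes (1.71%), and at least as high as that of Lpl for 386 genes (2.98%). Such shares varied with the signal. At a mean signal of 100 to 300, where Lpl lay (168), 5.78% of genes were at least 2-fold higher. At 1000 to 3000, where Fabp4 lay (1040), 2.32% were.

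**Figure D2:**
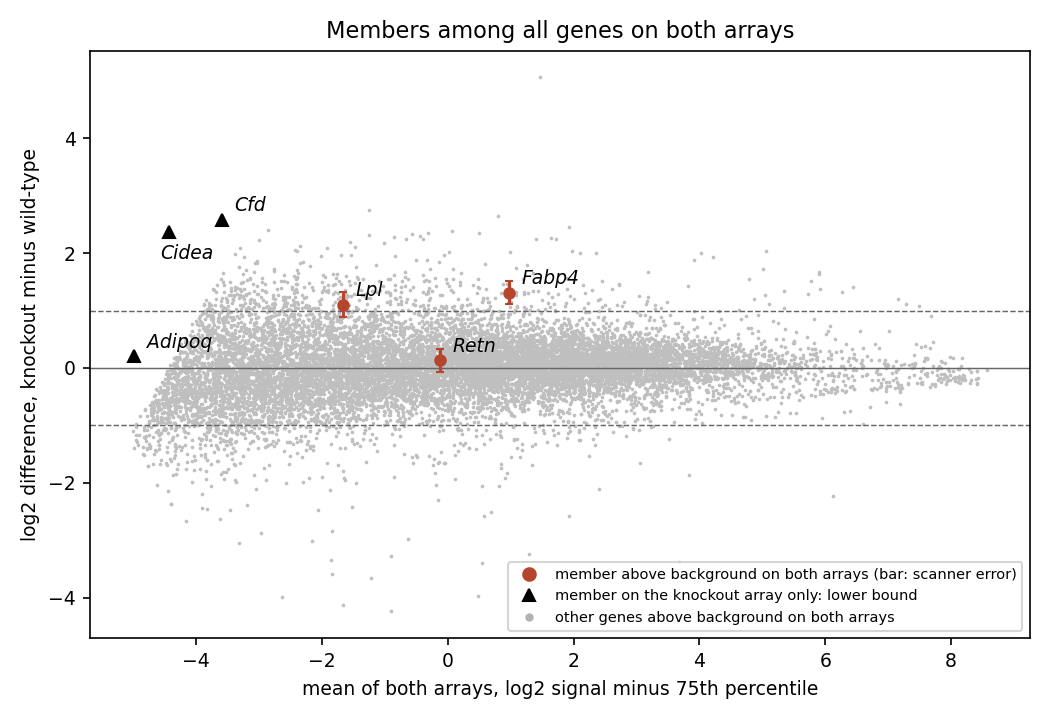
Log2 difference (knockout minus wild-type) against the mean scaled log2 level for the 12958 genes well above background on both arrays (grey), with Fabp4, Lpl and Retn in red (bars: scanner error) and lower bounds for Cfd, Cidea and Adipoq as triangles, placed at the mean of their measured levels. Fabp4 at 1.31 and Lpl at 1.102 lie above the dashed 2-fold line, and Retn at 0.13 lies near 0.

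The 4 secreted factors differed in pattern. Cfd encodes complement factor D, also called adipsin, a serine protease that the alternative complement pathway needs. Its signal was 141 on the knockout array and 13.9 on the wild-type array, where it was not well above background and where 7 of 153 negative control spots read as high or higher. Set against the wild-type array's dimmest probe above background, Cfd was at least 6.00-fold higher on the knockout array. The bound was 2.58 on the log2 scale, and 3 of the 1768 genes seen on the knockout array alone had a bound this high, Cfd included. Cfd was chosen with these values known and passed the background limit only where it was brighter. Its rank is therefore a description and not evidence. With normexp the Cfd difference was 1.11.

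Adipoq, which encodes adiponectin, a hormone made almost only by fat cells, had a signal of 27.2 on the knockout array and 10.4 on the wild-type array. It was well above background on the knockout array only, at least 1.16-fold higher (bound 0.21, and 0.738 with loess), and 373 of the 1768 genes of that kind (21.1%) had a bound as high. The bound leaves out the scanner error, which was 3.40 for the knockout signal and 0.76 for the measured log2 difference of 1.45. The highest of the knockout array's 153 negative control spots, at 27.8, was brighter than Adipoq.

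Retn, which encodes resistin, gave different answers by its 2 probes. The brighter probe read 501 on the knockout array and 479 on the wild-type array, a difference of 0.13 ± 0.20, within the scanner error. The dimmer probe read 38.4 on the knockout array and 19.9 on the wild-type array, where it was not well above background, at least 1.63-fold higher. Lep, which encodes the hormone leptin, was spotted 10 times on each array. Its spots read 1.99 to 5.86 (median 2.11) on the knockout array and 4.95 to 6.01 (median 5.19) on the wild-type array. The 5.86 spot carried an outlier flag and was left out of the probe's value. No spot on either array was well above background, and no fold is given.

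The promoters of Cfd and Adipoq, seen on the knockout array only, and of Retn, alike on both by its brighter probe, are shown so that these 3 secreted factors can be compared in sequence as well as in signal. Each window runs from 250 bases before to 50 after the gene's start (RefSeq, GRCm38.p6, 5′ to 3′ on the gene's strand), at chr10:79890603-79890902 for Cfd, chr16:23146286-23146585 for Adipoq and chr8:3655520-3655819 for Retn, all on the plus strand. Capitals mark CCAAT on either strand.
Cfd: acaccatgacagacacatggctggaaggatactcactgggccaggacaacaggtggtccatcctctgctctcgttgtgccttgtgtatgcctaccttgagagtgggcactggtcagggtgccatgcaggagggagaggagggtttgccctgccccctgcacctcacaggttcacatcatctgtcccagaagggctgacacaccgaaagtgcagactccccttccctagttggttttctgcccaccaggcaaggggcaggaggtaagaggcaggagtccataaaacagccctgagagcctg
Adipoq: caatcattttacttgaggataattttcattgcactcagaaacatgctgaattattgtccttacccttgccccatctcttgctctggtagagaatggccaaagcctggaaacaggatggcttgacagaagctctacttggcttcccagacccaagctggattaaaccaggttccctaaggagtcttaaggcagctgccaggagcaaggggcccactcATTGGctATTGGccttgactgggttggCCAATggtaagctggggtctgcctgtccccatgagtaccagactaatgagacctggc
Retn: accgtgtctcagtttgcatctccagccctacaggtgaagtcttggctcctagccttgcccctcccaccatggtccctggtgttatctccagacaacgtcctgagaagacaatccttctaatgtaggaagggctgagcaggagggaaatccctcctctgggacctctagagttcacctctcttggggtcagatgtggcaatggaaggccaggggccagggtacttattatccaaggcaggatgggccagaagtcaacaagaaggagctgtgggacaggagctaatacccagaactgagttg

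The table held 8 windows for 7 members (Cfd, Cidec, Adipoq, Plin1, Ucp1, Lep and Retn). Both strands were searched for the nuclear receptor core AGGTCA, the NF-Y core CCAAT, the TATA box TATAAA, the GC box GGGCGG and the E-box CACGTG. Adipoq had CCAAT at 3 places, at positions -34 and -27 (read on the minus strand) and -7 (plus strand), counted from the gene's first base as 0. Ucp1 had AGGTCA at -14 and Lep had GGGCGG at -98. No other match was found, and none in Cfd or Retn. Of all 32851 windows of this length, 37.4% held the CCAAT core, 16.3% the nuclear receptor core, 13.6% the TATA box, 35.7% the GC box and 7.15% the E-box. A match is a run of letters and not a site known to be used, and no match says nothing of the factor.

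The lipid droplet genes among the members were seen, if at all, on the knockout array. Cidea, a protein of the CIDE family that lets droplets exchange lipid and is abundant in mouse brown fat, had a signal of 121 on the knockout array and 4.98 on the wild-type array. On the wild-type array 130 of 153 negative control spots read as high or higher, and on the knockout array 0 did. Cidea was at least 5.15-fold higher on the knockout array, and 4 of 1768 genes seen there alone had a bound this high, Cidea among them. With normexp the Cidea difference was 1.102. Over all 20650 genes with a value on both arrays, 0.387% (80) were seen on the knockout array alone with a bound of at least 2-fold. Cfd and Cidea were 2 of them. Both were chosen with these values known and passed the background limit only where they were brighter, so these ranks are not evidence.

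Cidec, the CIDE protein of white fat droplets, read 10.6 on the knockout array and 4.94 on the wild-type array by its brighter probe. The knockout spot was just past that array's limit of 9.60 and under the wild-type array's limit of 24.6, so no fold is given. Its other probe did not pass that limit on either array, at 2.14 on the knockout array and 5.39 on the wild-type array. Plin1, perilipin 1, which guards the droplets of fat cells against lipases, read 2.02 on the knockout array and 8.48 on the wild-type array, not well above background on either.

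Ucp1, the uncoupling protein of brown fat, rested on a wild-type spot that could not be used. The knockout spot had a signal of 29.7, well above background and above all 153 negative controls. The wild-type spot had a processed signal of 1860, but its median pixel was 441.5 and the scanner software marked both the spot and its local background as non-uniform. The processed signal was 4.44 times the median pixel less the local background, against 0.845 to 1.0 times for the other member spots with a signal over 100. Non-uniform gene spots numbered 1 on the knockout array and 18 on the wild-type array, of 43020 each. Pixels around the Ucp1 spot had an SD of 69.9 on the wild-type array, against 5.81 on the knockout array. The spot was left out, and no difference is reported for Ucp1.

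Kept in spite of its flag, the spot would give a log2 difference of -5.90, and -2.80 by the median pixel less background. The authors' deposited table keeps it, at log2 values of 5.02 in the knockout column and 10.83 in the wild-type column, a difference of -5.81. Of all members, Ucp1 would then be the only one above background on both arrays that was lower on the knockout array. That value rests on 1 flagged spot.

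**Figure D3:**
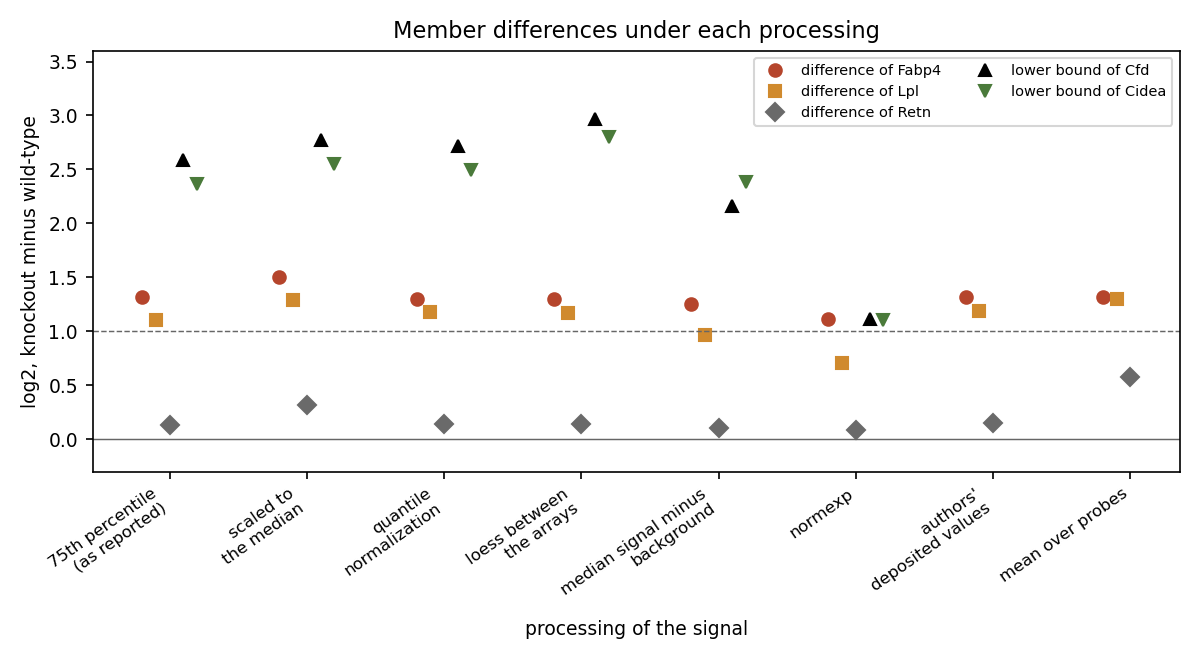
Log2 difference of Fabp4, Lpl and Retn and lower bound of Cfd and Cidea (knockout minus wild-type) under 8 ways of processing the signal; the dashed line marks 2-fold. Fabp4 lies between 1.11 and 1.503 in all, Lpl falls under the line with normexp (0.71) and with the median signal minus background (0.97), and no bound was computed for the deposited table or the mean over probes.

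Other genes of fat biology, in 8 lists with 90 genes, were mostly within 2-fold or dim. Of the 90 genes, 59 were well above background on both arrays, 5 of them at least 2-fold higher and 5 at least 2-fold lower on the knockout array (3.95% and 3.63% over all genes), with a median difference of 0.14. A further 18 were seen on the knockout array only and 0 on the wild-type array only, against 8.56% and 0.692% of all genes. None of the 18 reached a bound of 2-fold, and 6 had a bound above 1.

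Among 14 transcription factors of fat cell formation, 11 were measured on both arrays. Of these, 2 were at least 2-fold higher and 0 at least 2-fold lower (3.95% and 3.63% over all genes). Pparg, which encodes PPARγ, read 219 on the knockout array and 81.5 on the wild-type array, 2.81-fold higher, and its difference of 1.49 became 0.86 with normexp. Nr1h3, which encodes the oxysterol receptor LXRα, read 5140 on the knockout array and 2070 on the wild-type array, 2.60-fold higher, and its second probe gave 1.72. Cebpa, the partner of PPARγ in fat cell formation, read 40.7 on the knockout array and 70.1 on the wild-type array, a difference of -0.72 ± 0.24. Of the 12 other secreted factors of fat tissue, 7 were measured on both arrays and 1 passed 2-fold: Retnla, a relative of Retn that alternatively activated macrophages also make, with 250 on the knockout array and 94.6 on the wild-type array (1.47 ± 0.22, 0.86 with normexp).

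The handling of stored fat was split. In triglyceride synthesis (8 of 11 genes on both arrays) Gpd1, which makes glycerol phosphate, was 3.16-fold higher at 178 on the knockout array and 59.0 on the wild-type array, less than 2-fold with normexp (0.85), while Scd1, a fatty acid desaturase, had a difference of -1.20, which was just within 2-fold with normexp. In lipolysis (7 of 9) Aqp7, the channel through which fat cells release glycerol, had the largest difference among these 90 genes, at 44.9 on the knockout array and 478 on the wild-type array, a difference of -3.35 ± 0.22 that was -1.85 with normexp. Among 9 other droplet genes, 6 on both arrays, Plin4, a droplet coat protein, had a difference of -1.10, which was -0.91 scaled to the median, -0.92 with quantile normalization, -0.19 with normexp, -0.67 from the median pixel minus background and -0.90 in the authors' deposited table. In fatty acid uptake (9 of 11) Vldlr, a lipoprotein receptor, had a difference of 1.08 (its second probe 0.39), and Cd36, a fatty acid translocase, one of -1.11. With normexp these were 0.58 and -0.39. Cd36 was also within 2-fold scaled to the median (-0.92), with quantile normalization (-0.96), from the median pixel minus background (-0.98) and in the authors' deposited table (-0.94), and Vldlr from the median pixel minus background (0.84).

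Of 12 brown and beige fat genes 6 were measured on both arrays, and Zic1, a factor that marks the brown lineage, read 53.2 on the knockout array and 308 on the wild-type array, a difference of -2.47 ± 0.21, with -1.28 by its second probe and -1.27 with normexp. Cox8b, a respiratory chain subunit of brown fat, was seen on the knockout array only, at 38.6 there and 5.10 on the wild-type array, at least 1.64-fold higher. Of 12 other white fat genes 5 were on both arrays and all lay within 2-fold, led by Aoc3 at 0.72, an amine oxidase, and Cyp2e1 at 0.49. A further 6 were seen on the knockout array only, with bounds of 1.42-fold for Slc2a4 (the insulin-dependent glucose transporter), 1.39-fold for Thrsp and 1.32-fold for Acvr1c. In the remaining lists, bounds above 1 were found for G0s2, an inhibitor of lipolysis (1.19-fold), and Zfp423, a factor of preadipocytes (1.14-fold). The bounds leave out the scanner error, and both genes had a measured difference of 0.29 ± 0.39, within that error. The 2 other Zfp423 probes lay the other way, at -0.68 and -0.78.

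**Figure D4:**
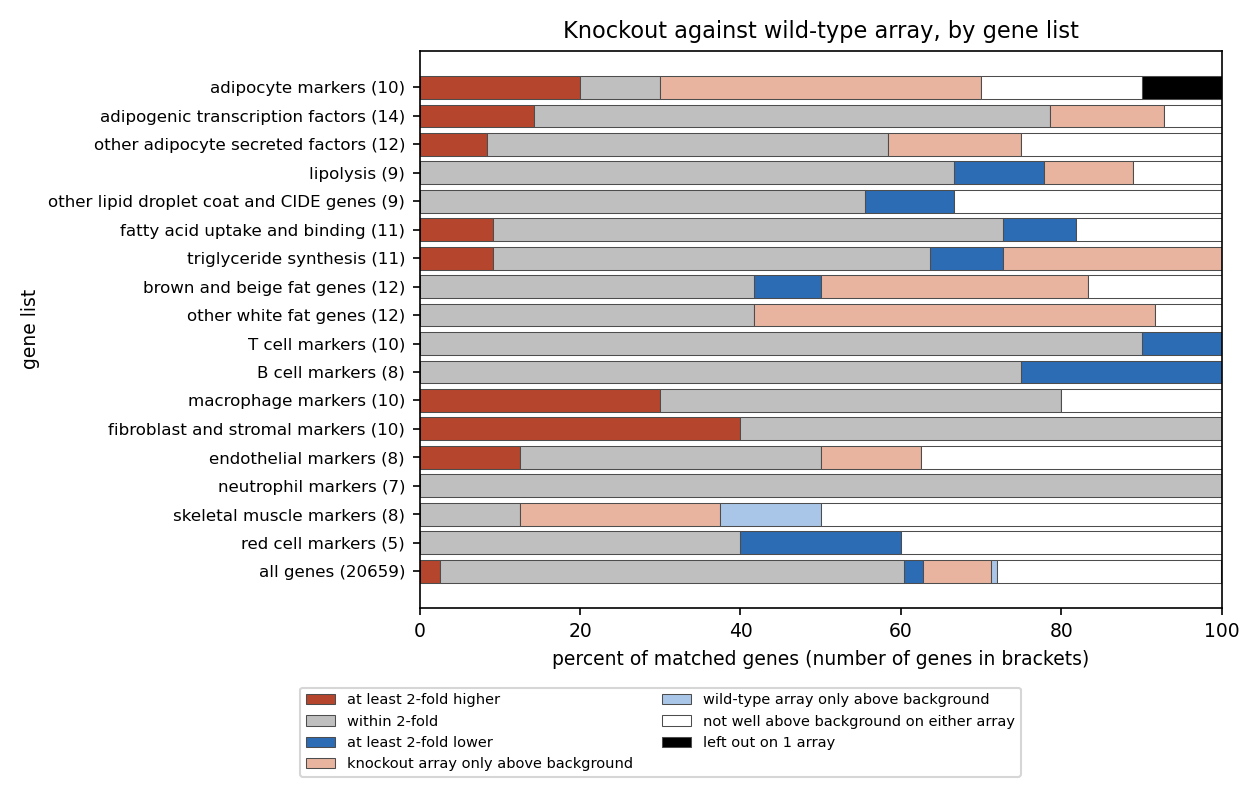
Share of each list's matched genes (percent, number of genes in brackets) by outcome of the knockout against the wild-type array: at least 2-fold higher, within 2-fold, at least 2-fold lower, above background on 1 array only, on neither, or left out. The 10 adipocyte markers have 2 genes in the first class and 4 seen on the knockout array alone; the 10 fibroblast and stromal markers have 4 in the first class and 0 seen on 1 array alone.

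Markers of some other cell types were higher on the same array as Fabp4, Lpl, Cfd and Cidea. Over all genes measured on both arrays, 50.4% were higher on the knockout array by any amount, and 3.95% by at least 2-fold. By each gene's brightest probe, macrophage markers were higher on the knockout array in all 8 measured on both arrays, 3 of them at least 2-fold. Their median was 0.79, and C1qa, at 0.10, was within its scanner error of 0.21. Csf1r, at 0.90, had other probes at -0.14 and -0.57, while those of Adgre1 (1.21) and Msr1 (0.46) were higher. The summed signal was 27800 on the knockout array, with 12000 from Marco and 11700 from Csf1r, and 13400 on the wild-type array. Marco, a scavenger receptor, was 2.70-fold and Mrc1, the mannose receptor, 2.62-fold higher, while Cd163 and Vsig4 were not well above background on either array. Fibroblast and stromal markers were higher in 9 of 10, 4 of them at least 2-fold, with a median of 0.93 and summed signals of 18000 on the knockout array and 14300 on the wild-type array. Col1a2, a collagen chain, was 2.42-fold and Pdgfrb 2.32-fold higher. With normexp 8 of the 10 stromal markers were higher and 1 passed 2-fold, while all 8 macrophage markers stayed higher, 3 of them past 2-fold. Of 8 endothelial markers 4 were measured on both arrays (median 0.40) and Lyve1, also made by some macrophages, was 2.69-fold higher, while Tie1, Tek and Prox1 were not well above background on either array. The summed endothelial signal was 2230 on the knockout array and 1470 on the wild-type array.

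The T cell list had a median of 0.08, with Cd3e at -1.13 (-0.94 scaled to the median). The B cell list had one of -0.32, with Blk at -1.41 and Cd79a at -1.18, which were -0.47 and -0.69 with normexp, and Cd79a was -0.99 scaled to the median. The neutrophil list had a median of 0.16, with Ngp at -0.93 and Ltf at 0.44. The 3 measured red cell markers had a median of -0.94, and -0.21 with normexp. Among them Alas2, at -1.15, was within 2-fold under 5 of 6 alternatives (-0.25 with normexp), and Slc4a1, at -0.94, was -0.15 with normexp. Of 8 skeletal muscle markers only Tnni2 was on both arrays (0.06). The part of macrophage, stromal and endothelial RNA in the member values was not tested, and with bulk RNA more cells of a type and more RNA per cell cannot be told apart.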

How the data were processed

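Spots were quantified by the authors in Agilent Feature Extraction 11.0.1.1, as the submitters' processing notes and the file headers state. What they deposited holds, for every spot, a background-subtracted intensity (the processed signal), its error, the median pixel and flags. The deposited value table holds log2 values with equal medians (5.36); its normalization and centring are not given in the sources used here.

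The log2 processed signal minus each array's 75th percentile over 39429 gene probes was used. Spots flagged non-uniform or population outlier (138 on the knockout array, 228 on the wild-type array, of 43020) were left out, and no gene spot was saturated. Spots of a probe were averaged, and a probe was well above background where most of its spots were. Probes were matched to genes by unversioned RefSeq accession (GRCm38.p6 table; 27234 probes, 20659 genes; the headers name another build). A gene was represented by its brightest probe above background on at least 1 array. "At least N-fold" compares the bright array's scaled signal with either the dimmest probe above background on the dim array or the same probe's own signal there, whichever is higher. Errors are the scanner software's, combined over both arrays, and the bounds take no account of them. The steps were tested on simulated data. Python 3.11.15, R 4.3.3 and limma 3.58.1 were used.

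The members and all lists were chosen with earlier results of these data known. Named genes were all members and, from each pathway list, up to 4 genes with the largest difference of at least 1 (otherwise the 2 largest), with up to 2 from each cell type list and genes on 1 array by their bound; Cebpa, Cd163, Vsig4, Tie1, Tek and Prox1 were named after their values were seen. Alternatives were median scaling, quantile, loess, normexp (offset 50, on the median pixel, then quantile normalization), median signal minus background, the deposited values, means over probes, different dim-probe filters, flagged spots kept, and 1.5-fold or 3-fold thresholds.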

Additional observations from a re-analysis of the deposited data

How the results depend on the processing

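The 2 members at least 2-fold higher on the knockout array were 1 with normexp, 1 with the median signal minus background, 1 among genes at or above the median signal, 0 at a 3-fold threshold and 6 with no filter on dim probes. The 0 members at least 2-fold lower were 2 with no filter (Plin1 and Lep, both not well above background) and 1 with flagged spots kept (Ucp1). The members' median difference of 1.102 was 0.709 with normexp, 0.721 among brighter genes and 0.621 with flagged spots kept. The difference of Fabp4 lay between 1.11 and 1.503 over its alternatives and that of Lpl between 0.709 and 1.295. The bound of Cfd lay between 1.11 and 2.97 and that of Cidea between 1.102 and 2.80, both lowest with normexp. The bound of Adipoq (0.21) lay between 0.215 and 0.738, highest with loess. Retn stayed within 2-fold, from 0.08 to 0.57. Fabp4 and Lpl stayed higher on the knockout array under every alternative that gave them a value. The offset of normexp makes differences of dim probes smaller, and what else moved the values was not tested. Scaling to the median moved every difference by 0.190. With 1 array per genotype, no array could be left out, and the dim range of the wild-type array limits Cfd, Cidea and Adipoq to bounds and leaves Cidec without a fold.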

Other observations

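The control probe (+)E1A_r60_a107, spotted 32 times, had a median of 126 (115 to 137) on the knockout array and 47.6 (40.1 to 87.4) on the wild-type array, a scaled log2 difference of 1.48, while 9 further control probes of this kind had medians under 10 on both arrays. Whether this bears on the members was not tested.

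In the authors' deposited table Gpihbp1, which anchors Lpl to capillary walls, differs by 10.84, while its signals were 58.0 on the knockout array and 75.2 on the wild-type array (-0.31). That table's highest value was 46.7 in the knockout column and 17.7 in the wild-type column.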
